A study of Mus musculus with 6 samples.

Results

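The ER stress sensors and the membrane-bound bZIP transcription factors were followed through every probe of 10 genes in mouse liver: Ern1, Xbp1, Eif2ak3, Atf6, Atf6b, Creb3, Creb3l2, Creb3l3, Mbtps1 and Mbtps2. The members were all probes of the bead array whose platform gene symbol is 1 of these 10, which gave 22 probes among 45281 and stands for 10 of the 19057 genes named on the array. The livers came from C57Bl/6N mice aged 8 weeks. The tunicamycin group (3 arrays) was injected intraperitoneally at 2.5 mg/kg, and the vehicle group (3 arrays) received an equal volume of the diluent, which per the labels was PBS with glucose into which tunicamycin in DMSO was diluted. All livers were taken 12 hours after injection, and total RNA was labelled with biotin and hybridised to an Illumina bead array. Nothing in the sources used here says which replicates share a cage, chip or day, so the p-values measure the spread between these arrays.

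Tunicamycin blocks the start of N-linked glycosylation, and glycoproteins that cannot fold then collect in the endoplasmic reticulum (ER). Sensor proteins that span the ER membrane report this load. IRE1alpha, the product of Ern1, is a kinase and endoribonuclease that removes a short intron from the Xbp1 mRNA, so that the bZIP factor XBP1 is made in its active form. PERK, the product of Eif2ak3, phosphorylates the translation factor eIF2alpha. ATF6 and its relative ATF6-beta are themselves bZIP factors held in the membrane. They move to the Golgi under stress, where the site-1 protease (Mbtps1) and the site-2 protease (Mbtps2) cut them and free the part that enters the nucleus. The same proteases cut the CREB3 family, to which Creb3 (Luman), Creb3l2 (BBF2H7) and Creb3l3 (CREBH) belong, and also the SREBP factors of lipid synthesis. CREBH is known as a factor of liver and intestine that acts on lipid metabolism and on acute phase and iron genes.

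RefSeq promoter windows in the GRCm38.p6 build, each 300 bases with 250 before the annotated start and 50 after it, were available for 9 of the 10 genes in 10 windows (not Atf6). These were searched on both strands for letters linked to ER stress and CREB-type factors. The ER stress element (CCAAT, then 9 bases of any kind, then CCACG), ERSE-II (ATTGG, then 1 base, then CCACG), TGACGTGG (UPRE), TGACGTCA (CRE) and the amino acid response letters (TGATG, then 1 base, then AA) were found in none of the 10 windows. They occur in 0.119%, 0.0365%, 0.676%, 1.79% and 3.97% of all 32851 windows of the table. The shorter core TGACG, which lies inside the UPRE and CRE letters, was found in 3 of the 10 windows and in 20.8% of all windows. The 3 stretches below show that core in capitals, 5′ to 3′ on the strand of the gene. They come from the 3 windows in which the core was found, whatever the result of the gene. These windows belong to the gene with the largest rise (Creb3l2), the gene with the largest fall (Creb3l3) and a gene with no called probe (Mbtps1). Creb3l3 was the only gene with 2 windows, and the core was found in 1 of them, chr10:81092542-81092841. The other Creb3l3 window, chr10:81098823-81099122, lies upstream of it on the strand of the gene and lacked the core. In the Mbtps1 window the core lies on the opposite strand.
Creb3l2, chr6:37442293-37442392, minus strand: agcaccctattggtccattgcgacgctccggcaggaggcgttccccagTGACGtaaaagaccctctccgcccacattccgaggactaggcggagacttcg
Creb3l3, chr10:81092742-81092841, minus strand: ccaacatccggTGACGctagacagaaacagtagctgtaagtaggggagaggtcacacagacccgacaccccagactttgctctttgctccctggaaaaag
Mbtps1, chr8:119558782-119558881, minus strand: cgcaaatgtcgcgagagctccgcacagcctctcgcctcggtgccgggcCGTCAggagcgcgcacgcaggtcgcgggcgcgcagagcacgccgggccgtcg

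The number of detected probes per array, those whose detection p was below 0.05, ran from 15503 to 16603, and the array medians of deposited intensity ran from 88.9 to 96.8. Defining hepatocyte markers such as Ttr, Apoa1, Cps1 and Cyp2e1 were bright in every group, with normalized log2 means of 12.83 to 14.33 for these 4. Alb, also a hepatocyte marker, did not pass the detection filter. Over all named genes tested, each by its brightest probe, 33.1% fell and 31.2% rose. Of 9 tested hepatocyte markers 6 fell and 0 rose. Their summed linear level went from 108000 to 115000 on the vehicle arrays to 84100 to 89100 on the tunicamycin arrays. Of 9 tested markers of Kupffer cells, the resident macrophages of liver, 8 fell and 0 rose, with summed levels of 2950 to 4290 and 691 to 2050. Markers of endothelial cells (3 of 7 fell), stellate cells (2 of 5 fell) and erythroid cells (1 of 2 fell) had 0 rises. Those of bile duct (2 tested) were not called, and 1 of 3 for neutrophils and lymphocytes rose. That marker, Retnlg, had a log2 fold change of 0.34 (limma adjusted p = 0.0456) and was detected on 1 of 3 vehicle arrays. No lymphocyte marker was tested. The 9 hepatocyte markers were detected on all 6 arrays, and of the Kupffer markers Timd4 and Marco missed detection on some. Their part in the results below was not tested, and in whole liver fewer cells of a type and less RNA per cell cannot be told apart.

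After tunicamycin, 6 of the 9 genes with a tested probe had a called rise. Creb3l2 rose most, Eif2ak3, Atf6b and Creb3 each rose by about 1 on the log2 scale, and Xbp1 rose slightly. Atf6, also counted here, was detected on no vehicle array and passed the filter only through the tunicamycin arrays. It therefore had to differ, and its fitted size was taken against background. Creb3l3 and the brighter Ern1 probe fell, and Mbtps1 had no called probe. Of the 22 probes, 14 passed the detection filter, a detection p below 0.05 on 3 or more of the 6 arrays, and were tested with limma. At a Benjamini-Hochberg adjusted p under 0.05 over all 16559 tested probes, 8 of the 14 rose, 2 fell and 4 were not called. Over all tested probes, 61.5% were called, with 31.8% up and 29.8% down, so that a called member probe is no rare event on these arrays. The groups did not overlap for 10 of the 14, beside 65.7% of all tested probes. Both Atf6 probes and 1 Creb3l2 probe, 3 in all, passed the filter only through the tunicamycin arrays. Of the 10 probes detected on all 6 arrays, 5 rose, 2 fell and 3 were not called.

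**Figure D1:**
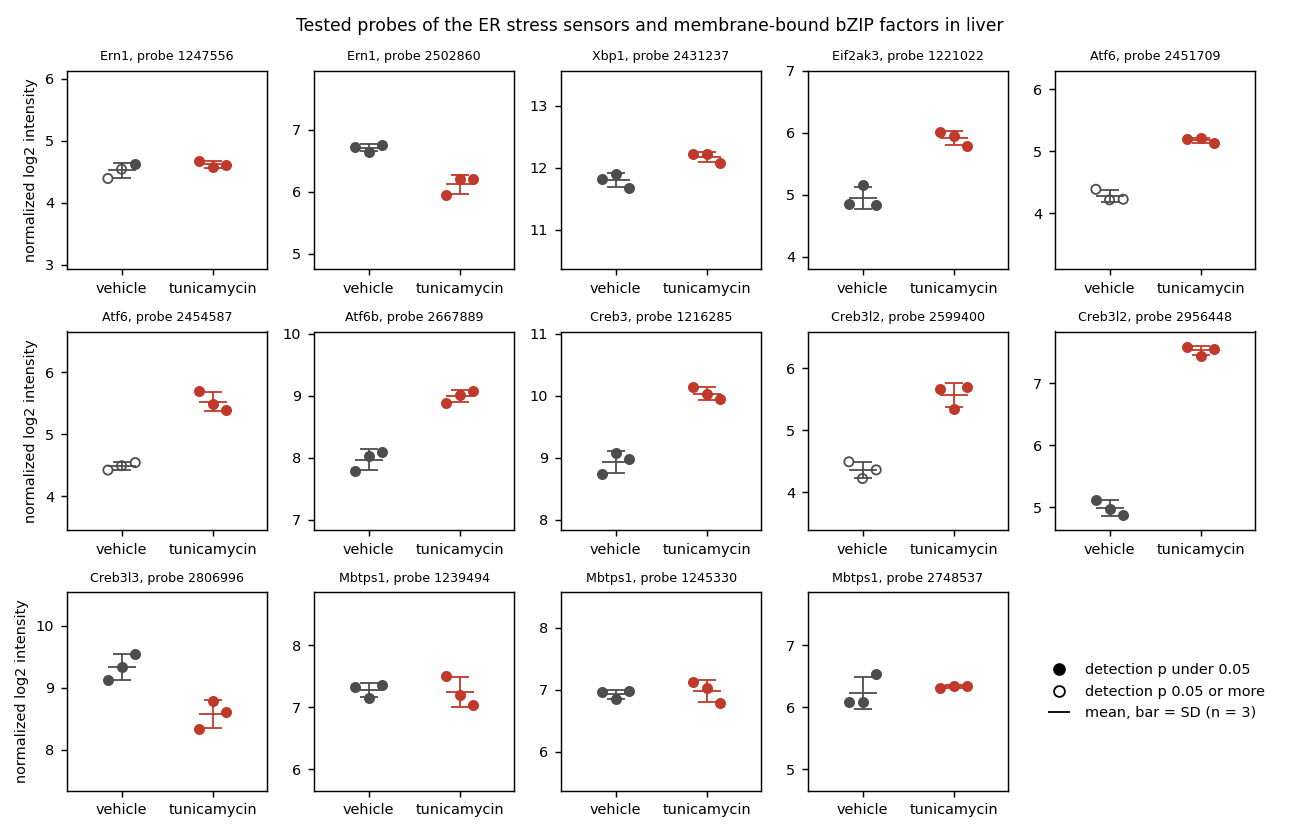
Normalized log2 intensity (vertical axes, each spanning the same range) of the 14 tested probes on the 3 vehicle and 3 tunicamycin arrays, with the mean and SD of each group, filled points for a detection p under 0.05 and open points otherwise. The groups are apart for the 10 called probes and overlap for the 3 Mbtps1 probes and for Ern1 probe ILMN_1247556, and the open vehicle points of both Atf6 probes and of Creb3l2 probe ILMN_2599400 show that they were not well above background there.

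Ern1, the gene of IRE1alpha, had 3 probes, of which 1 was well above background in both groups. Probe ILMN_2502860, annotated to the RefSeq transcript, had normalized log2 intensities of 6.72, 6.64 and 6.75 on the vehicle arrays and of 5.94, 6.20 and 6.21 on the tunicamycin arrays. All 3 tunicamycin values lay below all vehicle values, with 0.43 between the groups, and the probe was detected on all 6 arrays. The log2 fold change was -0.59 ± 0.11 (SE, n = 3 per group, limma adjusted p = 0.00109), a fall of 1.5-fold. It was -0.31 without background correction and -0.42 with an offset of 50, both called. The intensities as deposited were 185.9, 166.9 and 171.6 on vehicle and 124.5, 147.2 and 167.7 on tunicamycin arrays, which overlap before normalization. Probe ILMN_1247556, annotated to a cDNA clone, lay near background, with detection on 1 vehicle and 3 tunicamycin arrays. Its log2 fold change was 0.09 with a 95% interval of -0.15 to 0.34 (limma adjusted p = 0.485), beside -0.84 to -0.33 for the brighter probe. Its vehicle mean of 4.52 lay at the lowest level detected on the arrays, 4.51 to 4.59, so that a fall could not have been seen with it. The remaining probe, ILMN_1221898, was detected on no array.

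Xbp1, whose mRNA IRE1alpha cuts, had 1 probe, ILMN_2431237, and the spliced form was not analysed here. Its log2 intensities were 11.83, 11.91 and 11.68 on the vehicle arrays and 12.23, 12.22 and 12.08 on the tunicamycin arrays. The groups were apart by 0.17, close to the SDs within them of 0.11 and 0.09. The deposited intensities overlapped, at 3729.8, 3948.1 and 3474.1 on vehicle arrays and 3849.1, 4685.2 and 5100.3 on tunicamycin arrays. The log2 fold change was 0.37 with a 95% interval of 0.12 to 0.62 (limma adjusted p = 0.0141), a rise of 1.29-fold. The call was lost with 1 median per array in place of quantile normalization (0.28, limma adjusted p = 0.17), without vehicle replicate 3 (0.30, limma adjusted p = 0.0593) and without tunicamycin replicate 1 (0.34, limma adjusted p = 0.0522).

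Eif2ak3, the gene of the eIF2alpha kinase PERK, rose 1.96-fold by ILMN_1221022. Its log2 intensities were 4.85, 5.15 and 4.84 on vehicle arrays and 6.02, 5.94 and 5.79 on tunicamycin arrays, with detection on all 6. The tunicamycin values all lay higher, by at least 0.64, and the log2 fold change was 0.97 ± 0.12 (SE, limma adjusted p = 5.64e-05). The probe is dim, with deposited intensities of 101.3 to 143.4, and the size depended on how background was handled: the log2 fold change was 0.36 without background correction and 0.54 with an offset of 50, both called. The other probe, ILMN_1224408, also annotated to a cDNA clone, was detected on no array.

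Atf6, which encodes the cleaved sensor ATF6, went from no detection on any vehicle array to detection on every tunicamycin array by both of its probes. Probe ILMN_2454587 had log2 intensities of 4.42, 4.49 and 4.54 on vehicle arrays, with detection p-values of 0.0513 to 0.102, and of 5.69, 5.48 and 5.39 on tunicamycin arrays. Probe ILMN_2451709 had 4.39, 4.22 and 4.23 on vehicle and 5.20, 5.21 and 5.13 on tunicamycin arrays. For both the groups were well apart, and the levels were at least 1.97-fold and at least 1.56-fold higher after tunicamycin (limma adjusted p = 1.97e-05 and 2.88e-05). For these bounds a vehicle array counts at the dimmest level at which any probe was detected there, or at the probe's own level where that is higher. Both probes passed the detection filter only through the tunicamycin arrays and so had to differ, and their p-values are given as a description. The fitted log2 fold changes of 1.03 and 0.90 had overlapping intervals, 0.78 to 1.29 and 0.67 to 1.13. They came to 0.32 and 0.28 without background correction and to 1.38 and 1.64 with the second deposited table, so the size depends on how background was handled.

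Atf6b, the gene of the related factor ATF6-beta, was well above background in both groups and rose 2.04-fold. Its probe ILMN_2667889 had log2 intensities of 7.78, 8.03 and 8.10 on the vehicle arrays and 8.89, 9.02 and 9.08 on the tunicamycin arrays. The lowest tunicamycin value lay 0.79 above the highest vehicle value. The log2 fold change of 1.03 ± 0.12 (SE, limma adjusted p = 2.92e-05) stayed between 0.85 and 1.17 over 21 alternative settings, and it was called in each.

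Creb3, the gene of the bZIP factor Luman, rose 2.15-fold by ILMN_1216285. The log2 intensities were 8.73, 9.08 and 8.98 on vehicle arrays and 10.14, 10.02 and 9.94 on tunicamycin arrays. The groups were apart by 0.86, several times the SDs of 0.18 and 0.10 within them, and the log2 fold change was 1.10 ± 0.12 (SE, limma adjusted p = 2.03e-05). A second Creb3 probe, ILMN_1256905, was not tested. It was detected on 2 vehicle arrays and no tunicamycin array, with log2 means of 4.59 ± 0.05 and 4.38 ± 0.13 (SD, n = 3), which is at the background of the arrays and runs against the brighter probe.

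Creb3l2, the gene of BBF2H7, a factor known from cartilage for driving the genes of ER-to-Golgi transport, had the largest change among the members. Probe ILMN_2956448 had log2 intensities of 5.12, 4.97 and 4.87 on vehicle arrays, where it was dim but detected on all 3, and of 7.59, 7.44 and 7.55 on tunicamycin arrays. The gap between the groups was 2.32. The log2 fold change was 2.54 ± 0.11 (SE, limma adjusted p = 2.63e-08), which is a 5.82-fold rise. The other probe, ILMN_2599400, was not detected on any vehicle array and on all 3 tunicamycin arrays, with log2 intensities of 4.49, 4.22 and 4.36 and of 5.67, 5.34 and 5.69. It was at least 2.04-fold higher (limma adjusted p = 1.54e-05, a description, since it too passed the filter only through the tunicamycin arrays). Since this is a lower bound, its size was not compared with the 5.82-fold of the brighter probe. The brighter probe gave a log2 fold change of 1.29 without background correction and 1.73 with an offset of 50, and the dimmer probe gave 0.39 without background correction, 0.58 with the offset of 50 and 1.80 with the second deposited table.

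Creb3l3, the gene of CREBH, was the only bZIP gene among the members that fell. Its single probe, ILMN_2806996, had log2 intensities of 9.13, 9.34 and 9.55 on vehicle arrays and of 8.33, 8.78 and 8.61 on tunicamycin arrays. The lowest vehicle value lay 0.35 above the highest tunicamycin value, and the deposited intensities, 622.2 to 759.3 and 347.4 to 583.5, were apart as well. The log2 fold change was -0.77 ± 0.15 (SE), with a 95% interval of -1.09 to -0.44 (limma adjusted p = 0.00102), a fall of 1.7-fold. The SDs of 0.21 and 0.22 were among the widest of the tested members. The hepatocyte markers Ttr, at -0.70, and Cps1, at -0.70, had log2 fold changes of similar size, while Apoa1 was at -0.04 and Cyp2e1 at -0.01.

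Mbtps1, the gene of the site-1 protease, had 5 probes, of which 3 were tested and none was called. On ILMN_1239494 the vehicle arrays had 7.32, 7.14 and 7.35 and the tunicamycin arrays 7.50, 7.19 and 7.03, so that the groups overlapped. The log2 fold changes of this probe, ILMN_1245330 and ILMN_2748537 were -0.03, 0.05 and 0.10 (limma adjusted p = 0.852, 0.731 and 0.535). Their 95% intervals ran from -0.34 to 0.27, from -0.21 to 0.32 and from -0.20 to 0.40, so each of them leaves out a 2-fold change in either direction. The intervals of the tested probes overlapped, and ILMN_1231860 and ILMN_1254957 were detected on no array.

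Mbtps2, the gene of the site-2 protease, could not be assessed, as none of its 3 probes passed the filter. All 3 were undetected on the vehicle arrays. Probe ILMN_2596955 had detection p-values of 0.0438, 0.108 and 0.00321 on the tunicamycin arrays, ILMN_2593049 was detected on tunicamycin replicate 3 alone, and ILMN_1235967 on no array. The deposited intensities of the 3 probes ran from 86.7 to 95.2 on vehicle and from 89.4 to 109.7 on tunicamycin arrays, the highest of them on replicate 3, the array with the highest median intensity. Across the genes, 8 of the 22 probes were not tested, and 5 of these were detected on no array.

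**Figure D2:**
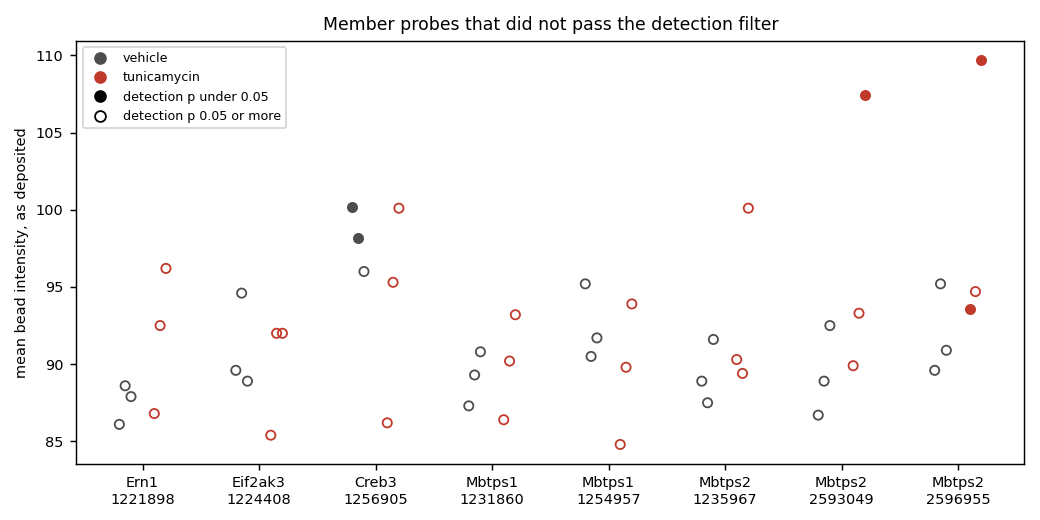
Mean bead intensity as deposited (vertical axis) of the 8 member probes that did not pass the detection filter, on the vehicle and tunicamycin arrays, with filled points for a detection p under 0.05. All values lie between 84.8 and 109.7, near the array medians of 88.9 to 96.8, and the filled points are 2 vehicle arrays for Creb3 and 3 tunicamycin values for Mbtps2.

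Of the 4 genes with several tested probes, Mbtps1 alone had more than 1 that was detected on all 6 arrays, and the 95% intervals of its 3 overlapped. For Ern1, Atf6 and Creb3l2, probes at background on vehicle arrays limit what their agreement can show. For the bright probes of Xbp1, Atf6b, Creb3 and Creb3l3 the handling of background moved the log2 fold change little, and for the dim probes of Eif2ak3, Atf6 and Creb3l2 it moved the fold by more than 1.5 times. None of the 10 called member probes changed direction under the alternatives in which it was tested, all 21 for 7 of them and 16 to 17 for both Atf6 probes and Creb3l2 probe ILMN_2599400. Those last probes passed the filter only by being high after tunicamycin, so their kept direction is a description.

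**Figure D3:**
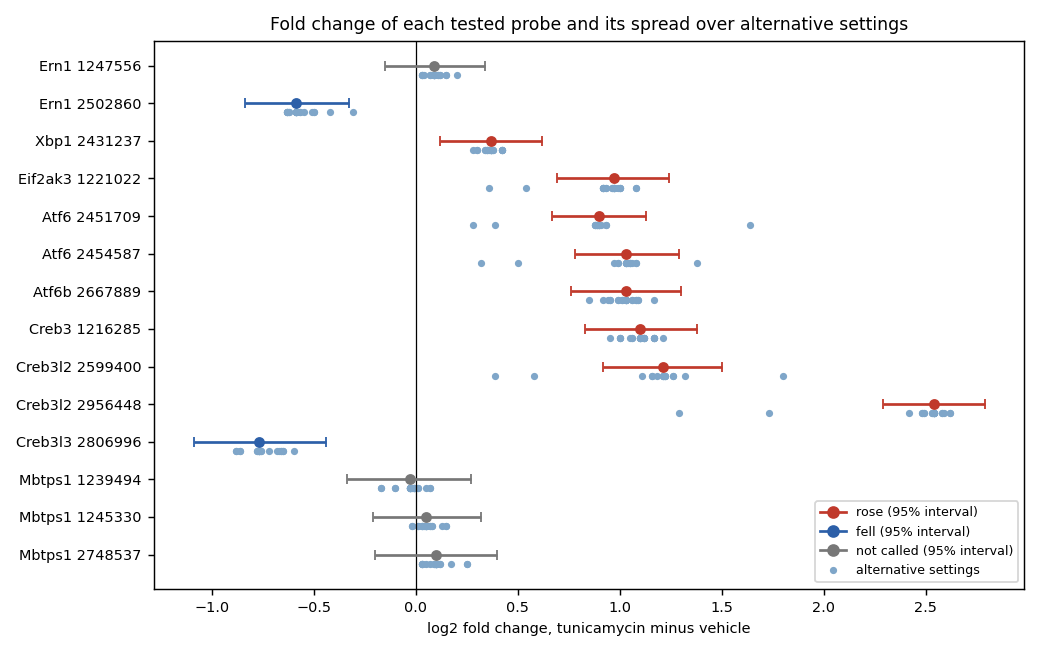
Log2 fold change, tunicamycin minus vehicle (horizontal axis), of each tested member probe with its 95% interval, in red for probes that rose, blue for those that fell and grey for those not called. The small pale points under each probe are the values under the alternative settings, which spread widely for Atf6 (from 0.28 to 1.64 for ILMN_2451709) and narrowly for Creb3 (from 0.95 to 1.21).

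By the root mean square difference of log2 values over the 6 arrays, each gene centred on its vehicle mean, the genes closest to Creb3l2 probe ILMN_2956448 were Supt5 (0.0652), Fndc3b (0.0819) and Dnajc10 (0.0831). Their log2 fold changes were 2.57, 2.45 and 2.45. The genes closest to Creb3l3 were Cdk5 (0.0537), Nr2f6 (0.0708) and Kptn (0.0722), with log2 fold changes of -0.79, -0.81 and -0.75. These are descriptions over 6 arrays that share the same 2 groups, among 9332 named genes.

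The genes that work beside each sensor were described by lists, each gene by its brightest tested probe. Over all 9332 named genes tested, 31.2% rose and 33.1% fell, with a median log2 fold change of -0.02. Reported XBP1 targets rose in 13 of 13 tested genes (of 15 listed), with a median of 1.77. Dnajb9, an ER co-chaperone, rose 12.4-fold by its brightest probe (limma adjusted p = 6.2e-09). Srprb, part of the signal recognition particle receptor, rose 10.9-fold by the brighter of 2 probes, and the log2 fold changes of both were 3.44 and 1.52. By brightest probe the log2 fold changes of the list began at 0.86, for Sec61b, beside 0.37 for Xbp1, while the other probe of Sec31a was at 0.15 and the lowest of Edem2 at 0.45. Among partners and regulators of IRE1, 5 rose, 2 fell and 6 of 13 were not called, with a median of 0.18. The protein disulfide isomerase gene Pdia6 rose 4.26-fold and the UFMylation ligase gene Ufl1 2.07-fold, while Tmem33 fell 1.63-fold. Serpinh1, the collagen chaperone HSP47, fell 3.03-fold by its brighter probe, and its other probe had a log2 fold change of 0.01.

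On the PERK side, a list held genes for other eIF2alpha kinases, phosphatase subunits and the exchange factor eIF2B, and also Nck1 and Dnajc3. Of its 11 tested genes 8 rose, Nck1 and Dnajc3 among them, 1 fell and 2 were not called. The median log2 fold change was 0.90. Dnajc3, which encodes the PERK inhibitor p58IPK, rose 9.99-fold, and Ppp1r15a, which encodes the eIF2alpha phosphatase subunit GADD34, rose 6.22-fold (limma adjusted p = 2.46e-08). All 5 eIF2B subunit genes rose, by log2 fold changes of 0.56 to 1.89. Eif2ak2, the gene of the RNA-activated kinase PKR, fell 1.5-fold (limma adjusted p = 0.0103). Eif2ak1, the gene of the heme-regulated kinase, had a log2 fold change of -0.15 (limma adjusted p = 0.242). Eif2ak3 was therefore the only 1 of the 3 tested kinase genes that was called as a rise; the differences between them were not tested, and Eif2ak4 did not pass the filter.

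Reported ATF6 targets rose in 10 of 10 tested genes (of 12 listed), with a median log2 fold change of 3.09. Derl3, a derlin of the ER degradation machinery, had no detection on a vehicle array and was at least 169-fold higher, and Creld2 rose 23.5-fold. The Derl3 probe thus passed the filter only through the tunicamycin arrays. Hspa5, the chaperone BiP that holds the sensors in check, had a probe detected on 1 of 3 vehicle arrays and rose 4.8-fold. Its vehicle mean of 4.46 lay below the lowest level detected on those arrays, 4.51 to 4.55, so this fold is taken against background. Of 13 genes for ATF6 retention and ER exit, 9 rose, 1 fell and 3 were not called, with a median of 0.95. Wfs1, an ER membrane protein reported to restrain ATF6, rose 14.9-fold, and the chaperone gene Calr rose 7.36-fold. Sar1b, a GTPase of COPII vesicles, fell 1.94-fold. Some genes stand in 2 of these lists, among them Hspa5, Calr, Dnajc3, Sec24d and Sec31a.

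Genes of the SREBP factors, which the site-1 and site-2 proteases also cut, and of the proteins that carry or hold SREBP in the ER fell. Of 6 tested genes in this list, 5 fell (Srebf1, Srebf2, Scap, Insig1 and Insig2), 0 rose and 1 was not called, with a median log2 fold change of -1.29. The gene not called was Gnptab, another site-1 protease substrate, at -0.21 (limma adjusted p = 0.179). Srebf1, the gene of the SREBP-1 factors of lipid synthesis, fell 8.87-fold (limma adjusted p = 2.58e-07), and Insig1, which holds SREBP in the ER, fell 4.15-fold by its brightest probe, with log2 fold changes of -2.19 to -0.56 over its 3 probes. Creb3l1 and Creb3l4, the remaining members of the CREB3 family, did not pass the filter.

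Reported liver targets of CREBH did not move together. Of 10 genes, 4 rose and 6 fell, with a median log2 fold change of -0.66. Cidec was detected on no vehicle array and was at least 2.63-fold higher after tunicamycin. Pck1, by its brightest probe, was detected on no tunicamycin array and was at least 2.78-fold lower. Each passed the filter only through the group where it was high and so had to differ. Fgf21, a hormone secreted by liver, was detected on 2 of 3 vehicle arrays and rose 38.2-fold, and Apcs, serum amyloid P, rose 6.13-fold. Apoa5, an apolipoprotein that lowers plasma triglycerides, fell 14.8-fold (limma adjusted p = 7.25e-09), and Crp fell 4.07-fold. Of a list of other bZIP genes, 7 of 7 tested rose, with a median of 1.02. They were 6 CREB and ATF genes and Nfe2l1, a factor of another bZIP family that is itself anchored in the ER membrane, at 0.97. Atf3, detected on 2 of 3 vehicle arrays, rose 66.4-fold, and Atf4 rose 3.69-fold. The vehicle means of Fgf21 and Atf3, 4.59 and 4.61, lay close to the lowest level detected on those arrays, 4.51 to 4.55. The folds of Fgf21 and Atf3 are thus taken against signal near background. Creb3l3, at -0.77, was the only tested bZIP gene among the members and this list with a called fall.

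**Figure D4:**
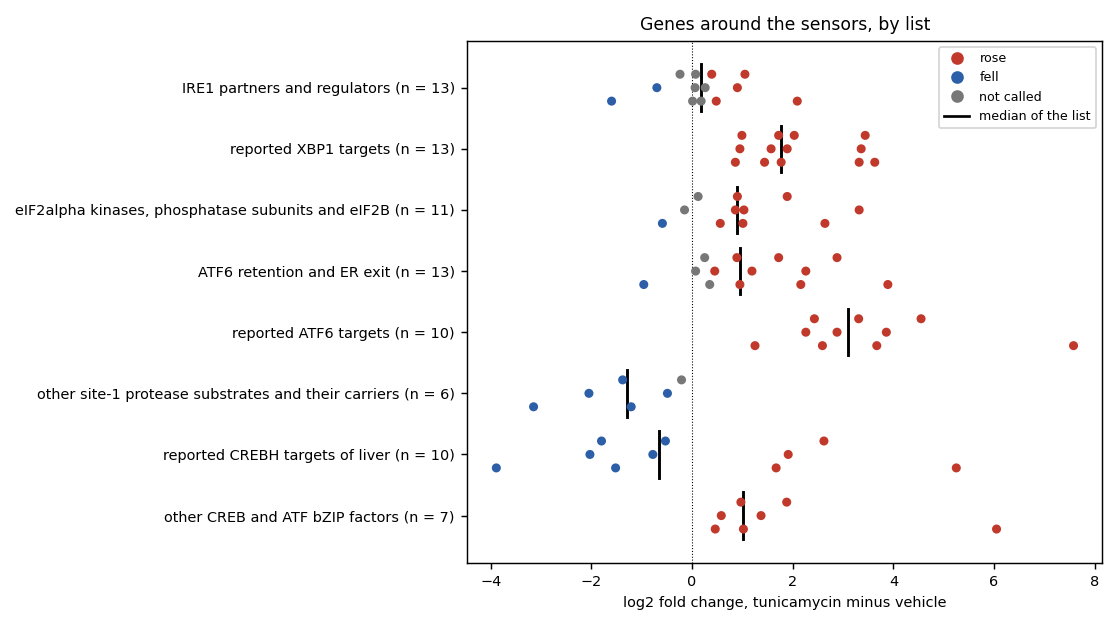
Log2 fold change, tunicamycin minus vehicle (horizontal axis), of the tested genes of each list, 1 point per gene by its brightest tested probe, with the median of the list as a bar. All points of the XBP1 and ATF6 target lists lie above 0, the points of the other site-1 protease substrates and their carriers lie below 0, and the CREBH targets spread from -3.89 for Apoa5 to 5.25 for Fgf21.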

How the data were processed

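The deposited mean bead intensity of each probe, per the file headers an average signal, was the starting point. From the values it is neither background-subtracted nor normalized. Beside each signal column stands the deposited detection p-value, named so per the file headers. A second deposited table of intensity, from its values background-subtracted and quantile-normalized on a linear scale (median 4.2 in each of its 6 columns, with no centring of genes), served as an alternative. The sources used here give no scanner or software. Background was removed by normexp (limma 3.58.1, R 4.3.3), fitted from the detection p-values, with 16 added as an offset, then arrays were quantile-normalized and log2 taken. The offset understates changes of dim probes. A detection p below 0.05 on 3 or more of 6 arrays was required (16559 of 45281 probes), and each probe was its own feature, tested with lmFit and eBayes at a Benjamini-Hochberg adjusted p under 0.05 over all of them. The pipeline was checked on simulated data in which 200 probes were changed. In the real data 61.5% of tested probes were called, so the check does not cover normalization under so broad a change. Symbols came from the platform annotation (34885 probes with 1 symbol), set against GRCm38.p6 gene names by Entrez ID. Arrays, not probes, are the replicates, and their number (3 per group) limits the precision.

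The members and lists were chosen with earlier results of these data known. All member probes are named. From each list the text names the 2 largest called rises and the 2 largest called falls, and the 3 closest profiles to the member probes with the largest rise and fall. Sec61b, Sec31a, Edem2, Eif2ak1, Gnptab, Srebf2, Scap, Insig2, Nfe2l1, the eIF2B genes, Hspa5 and the markers given with values were chosen after their values were seen. So were Cidec, Pck1 and Nck1. Alternatives covered background, offset, normalization, the second table, the detection filter, eBayes options, 1 probe per gene, a replicate block and leaving out each array.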

Additional observations from a re-analysis of the deposited data

How the results depend on the processing

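Of the 14 tested member probes, 13 kept their side of the threshold in each of the up to 21 alternative settings in which they were tested, and Xbp1 lost its call in 5, given with its values above. The 5 include the leave-out of vehicle replicate 3 and of tunicamycin replicate 1, each with the filter applied anew and, chosen after seeing the data, with the same probes tested (adjusted p = 0.0586 and 0.0507 in the latter). Leaving out each array gave 6 to 10 called member probes. The count was 6 without tunicamycin replicate 1, 7 without replicate 2 and 7 without replicate 3, because both Atf6 probes and ILMN_2599400 then missed the filter of 3 arrays, and without replicate 1 Xbp1 also lost its call. With the same probes tested it was 9 to 10. The count was 10 of 14 without background correction, with an offset of 50 and with the second table, 9 with 1 median per array, 8 of 9 with 1 probe per gene and 7 of 10 under the stricter filter. No called member probe was reversed. Both Atf6 probes and ILMN_2599400 passed the filter only through the tunicamycin arrays, so their unchanged direction is no support for a rise. Dim signal limits the sizes for Eif2ak3, Atf6 and Creb3l2. The fall of Ern1 probe ILMN_2502860 also became smaller without background correction, from -0.59 to -0.31. The replicate block, pairing arrays by number, called 10 member probes and 10249 of all probes, against 10191 without it. Deviations of same-numbered arrays correlated at 0.13, 0.05 and 0.02, and 3 of the 6 arrays correlated best with their own number, so the numbers were not taken to pair the samples.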

Other observations

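Probes of 1 gene also differed outside the members. Rtraf, part of the tRNA ligase complex that joins the cut Xbp1 mRNA, rose by 0.39 on the log2 scale by its brightest probe (limma adjusted p = 0.00633), while its 3 tested probes ran from -0.65 to 0.63. Ddx1, another part of that complex, rose by 0.90 by its brightest probe, with 0.72 for the other, Zbtb8os rose by 0.48, and Rtcb, the ligase itself, had a log2 fold change of 0.26 (limma adjusted p = 0.0758). These genes were chosen after their values were seen.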
